A study of Homo sapiens with 12 samples.

Results

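STAT2, STAT3, STAT5A, STAT5B and STAT6 are 5 members of the STAT family of transcription factors. They were taken by symbol from a table of 19293 genes, and all 5 were among the 12160 genes with enough counts to test. The table comes from RNA sequencing of HT1080, an established human fibrosarcoma line, at passage 15-20. The design has 4 groups of 3 libraries: cells left untreated, cells exposed to interferon gamma (IFNγ, 10 ng/ml), cells that received 20 Gy of radiation, and cells that received the 2 treatments together. Treated cells were harvested after 24 h. No group carries an engineered allele, and all groups are the same line in culture, without the immune cells that make IFNγ in a tissue. The labels number the libraries of a group but do not say whether they are separate cultures, so the replicate error behind each p may be technical. The groups are named here untreated, IFNγ, irradiated and combination.

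STAT proteins wait in the cytoplasm until a cytokine receptor brings JAK kinases together. The kinases phosphorylate the STAT, which then pairs with another STAT, enters the nucleus and binds DNA. STAT2 joins IRF9 in the ISGF3 complex that switches on antiviral genes downstream of type I interferon. STAT3 is the main factor of the gp130 cytokines such as interleukin 6, STAT5A and STAT5B serve growth hormone, prolactin and interleukin 2, and STAT6 serves interleukins 4 and 13. SOCS proteins, phosphatases and USP18 damp the pathway. The measurements are of mRNA, and phosphorylation was not measured.

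Library totals were 9675126 to 11010656 counts. The cells carried the mesenchymal markers of the line, 8 of 10 listed genes having at least 10 counts in every library, with a summed level of 7660 to 8340 CPM (counts per 1000000 of the scaled library total). Epithelial markers summed to 1.42 to 4.62 CPM and endothelial markers to 0.941 to 2.18 CPM. The 7 immune cell markers summed to 0.188 to 1.19 CPM in 11 libraries and to 6.03 CPM in irradiated replicate 2, where they held 60 counts against 7 and 9 in the other irradiated libraries. That library also held more counts of 2 interferon-induced genes chosen after their values were seen, GBP5 (59 counts against 10 and 3) and IDO1 (8 against 1 and 1). Values without it are given below for STAT6, STAT5A and some counts of called genes. Leaving out each library in turn, this one included, the log2 fold change with radiation was 0.76 to 0.83 for STAT2 and 0.90 to 0.97 for STAT3. Radiation changes of other single genes are given with it.

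STAT2 and STAT3 carry the main changes reported below, so the DNA just upstream of their first annotated exons is shown, from RefSeq promoter windows (GRCh38.p14). STAT2 lies on the minus strand of chromosome 12 and STAT3 on the minus strand of chromosome 17. Capitals mark the GC box GGGCGG and the CAAT box CCAAT, read on either strand, and the lines run 5′ to 3′ on the gene's strand at chr12:56360156-56360357 and chr17:42388569-42388692.
STAT2: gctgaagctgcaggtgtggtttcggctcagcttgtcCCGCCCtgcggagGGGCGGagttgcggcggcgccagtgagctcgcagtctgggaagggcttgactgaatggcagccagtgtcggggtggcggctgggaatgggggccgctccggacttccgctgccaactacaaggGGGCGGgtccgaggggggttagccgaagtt
STAT3: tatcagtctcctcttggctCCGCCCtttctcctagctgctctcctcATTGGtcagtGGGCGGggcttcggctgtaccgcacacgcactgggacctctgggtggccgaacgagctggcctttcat

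The 250 bases before the start of STAT2 held 3 GC boxes, and those of STAT3 held 2 GC boxes and 2 CAAT boxes. Each window ends in annotated exon bases of its own gene, 48 for STAT2 and 126 for STAT3, left out of the lines above. Of the 2 STAT3 CAAT boxes, the 1 at 79 bases before the start lies in that part. Among 35116 RefSeq promoter windows of the same length, 42.6% held the GC box and 32% the CAAT box. Neither window held the STAT dimer motif TTCNNNGAA, its form with a spacer of 4 bases, or the ISGF3 motif, a pair of GAAA repeats separated by any 2 bases, each searched on both strands. Those motifs were found in 6.57%, 5.38% and 3.02% of all windows. The p53 half-site, the decamer RRRCWWGYYY, was in neither window, and in 5.57% of all. The windows of STAT5B, with 2 GC boxes, and STAT6, with 2 GC boxes and 1 CAAT box, also lacked these motifs. They include 29 and 209 annotated exon bases of their own genes. In the first of 3 windows listed for STAT5A there was 1 match to the STAT motif with the spacer of 4 bases. No match says only that these letters are not in these 250 bases. GC content was 67.2% for STAT2, 64.4% for STAT3, 82% for STAT5B and 58.4% for STAT6, beside a median of 58% over all windows.

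IFNγ raised 3 of the 5 members, STAT2, STAT3 and STAT6, and lowered none. Radiation raised STAT2 and STAT3 and lowered STAT5B. The combination raised STAT2, STAT3 and STAT6 and lowered STAT5B. STAT5A was scarce in every group and passed no test. The background was 29.1% of all genes called for IFNγ, 56.1% for radiation and 62.1% for the combination, at a Benjamini-Hochberg adjusted p under 0.05 in edgeR's quasi-likelihood test. The share of members called, 3, 3 and 4 of 5, was therefore near the background in the irradiated groups.

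STAT2, the ISGF3 subunit, had the widest range. Its levels were 26.4, 27.4 and 29.0 CPM in the untreated libraries and 157.7, 159.4 and 145.9 CPM with IFNγ. Irradiated libraries had 45.3, 49.4 and 48.9 CPM, and combination libraries 210.6, 214.5 and 250.5 CPM. No library of any group overlapped with one of another, and combination replicate 3 stood above the other 2 of its group. Against untreated, libraries that did not overlap were found for 39.5% of all genes for IFNγ, 60.8% for radiation and 64.3% for the combination. Between treated groups the shares were 64.2% for the combination against IFNγ, 40.3% for the combination against radiation and 68.2% for IFNγ against radiation. The mean was 27.6 ± 1.35 CPM untreated, 154 ± 7.34 with IFNγ, 47.9 ± 2.26 irradiated and 225 ± 22.0 in the combination (SD, n = 3). In edgeR, IFNγ raised STAT2 by 2.49 ± 0.0736 on the log2 scale (SE; 5.6-fold; adjusted p = 5.6e-24). Radiation raised it by 0.80 ± 0.0826 (1.74-fold; edgeR adjusted p = 8.53e-10). The combination raised it by 3.03 ± 0.0722 (8.17-fold; edgeR adjusted p = 2.8e-27). Ordered by log2 fold change from the top, STAT2 stood at place 134 of 12160 genes for IFNγ, 757 for radiation and 140 for the combination. In bulk RNA, a change in every cell and a change in a fraction of the cells cannot be told apart.

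STAT3, the gp130 factor, rose with IFNγ and, to a slightly lower level, with radiation. Its levels were 92.4, 92.6 and 82.9 CPM untreated, 204.8, 191.0 and 182.8 CPM with IFNγ, 175.7, 172.3 and 169.1 CPM irradiated, and 260.6, 259.3 and 280.8 CPM in the combination. The libraries of the 4 groups did not overlap, beside the same shares of all genes as given for STAT2. Group means were 89.3 ± 5.52, 193 ± 11.1, 172 ± 3.29 and 267 ± 12.1 CPM in that order (SD, n = 3). IFNγ raised STAT3 by 1.11 ± 0.0454 on the log2 scale (SE; 2.16-fold; edgeR adjusted p = 2.39e-27). Radiation raised it by 0.95 ± 0.0459 (1.93-fold; edgeR adjusted p = 2.5e-24), and the combination by 1.58 ± 0.0442 (2.99-fold; edgeR adjusted p = 2.76e-35). Set directly against each other in a comparison added after the data were seen, the IFNγ libraries were 0.16 ± 0.0414 above the irradiated ones for STAT3 (edgeR adjusted p = 0.000615) and 1.69 ± 0.0636 above them for STAT2 (adjusted p = 4.16e-21). In that comparison 64.2% of all genes were called and 33% were called higher. With library totals in place of scaled totals, the STAT3 difference was 0.08 (adjusted p = 0.0683), and its call was lost.

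STAT6, the interleukin 4 and 13 factor, was the most abundant member in untreated cells and moved little. It read 149.0, 146.3 and 146.4 CPM untreated and 167.3, 167.6 and 161.8 CPM with IFNγ. Irradiated libraries read 148.7, 162.6 and 144.5 CPM, which overlapped with the untreated ones, and combination libraries read 175.8, 181.0 and 187.5 CPM. IFNγ raised it by 0.17 ± 0.0402 on the log2 scale (edgeR adjusted p = 0.000727) and the combination by 0.30 ± 0.0397 (adjusted p = 2.54e-09). With library totals in place of scaled totals, the IFNγ difference was 0.11 (edgeR adjusted p = 0.028), smaller but still called. For radiation the difference was 0.04 ± 0.0407, with a 95% confidence interval of -0.04 to 0.13 (edgeR adjusted p = 0.357). The highest irradiated value was that of replicate 2, and without it the difference was -0.007.

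STAT5B was the member that fell. Its levels were 45.3, 47.0 and 47.1 CPM untreated, 42.7, 44.0 and 41.8 CPM with IFNγ, 36.5, 35.3 and 37.6 CPM irradiated, and 35.9, 35.9 and 34.7 CPM in the combination. All irradiated and combination libraries lay below all others, and those groups overlapped with each other. Libraries that did not overlap with untreated ones were found for 60.8% of all genes for radiation and 64.3% for the combination. Against IFNγ the shares were 68.2% for radiation and 64.2% for the combination. Radiation lowered STAT5B by 0.35 on the log2 scale (log2 fold change -0.35 ± 0.0606; edgeR adjusted p = 1.93e-06), and the combination gave -0.39 ± 0.0604 (adjusted p = 1.46e-07). IFNγ libraries did not overlap with untreated ones, as for 39.5% of all genes, but the change of -0.12 ± 0.0585 did not pass (edgeR adjusted p = 0.136). It passed with library totals in place of scaled totals (log2 fold change -0.17, adjusted p = 0.0174). 

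STAT5A had 19, 14 and 23 counts in the untreated libraries, 21, 14 and 21 with IFNγ, 9, 20 and 15 irradiated, and 27, 21 and 27 in the combination. The groups overlapped in every comparison. Their sums were 56 counts untreated (exact Poisson 95% interval 42.3 to 72.7, which covers counting error only), 56 with IFNγ, 44 irradiated (32.0 to 59.1) and 75 in the combination (59.0 to 94.0). For IFNγ the log2 difference was 0.02 ± 0.291, with an interval of -0.57 to 0.60 (edgeR adjusted p = 0.976), and for radiation it was -0.30 ± 0.309, with an interval of -0.92 to 0.32 (adjusted p = 0.416). These intervals leave room for changes as large as those of STAT6 and STAT5B, so a difference of that size was not detectable at this depth. STAT5A and STAT5B are close paralogs: 8.61% of the distinct 50-base words of STAT5A transcripts also occur in STAT5B, so some reads of the 2 genes may have been assigned to either.

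**Figure D1:**
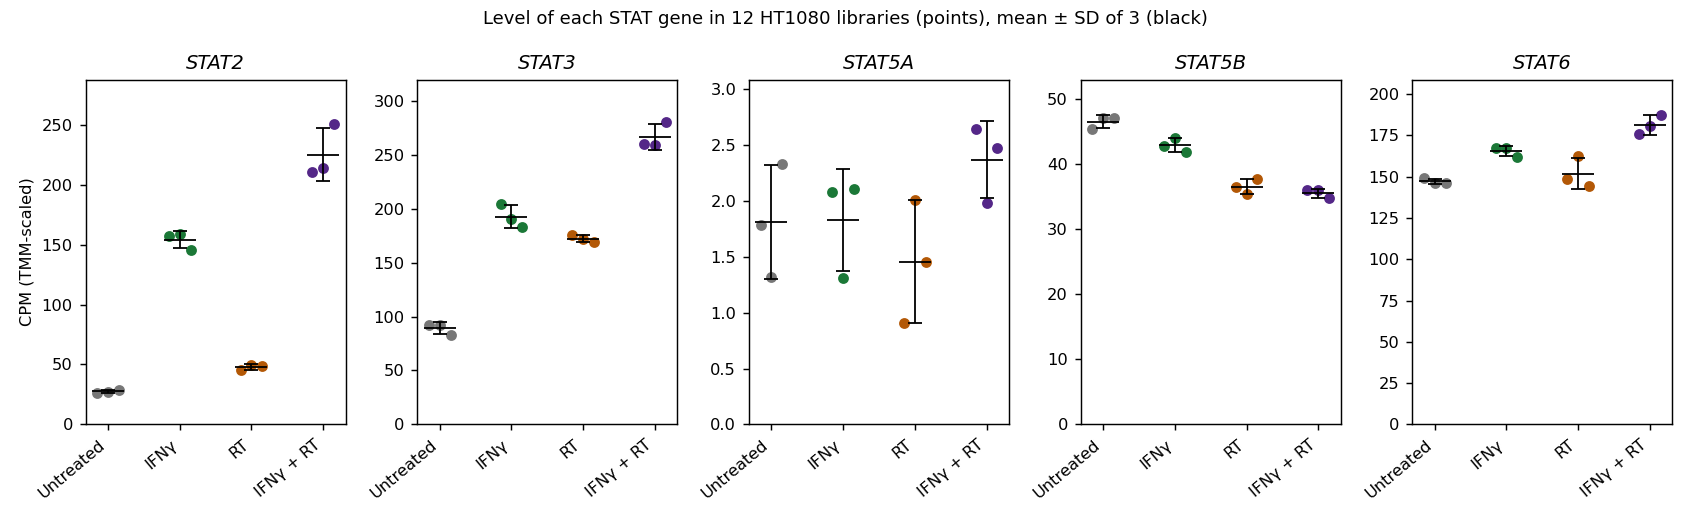
Level of each member in the 12 libraries in CPM on a linear axis from 0, with a panel per gene and its own scale. Points are libraries and black bars the mean ± SD of 3; STAT2 and STAT3 rise in every treated group, STAT5B is lower in the irradiated and combination groups, and STAT5A stays below 3 CPM.

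The neighbouring members on chromosome 17 did not move together. STAT5B, STAT5A and STAT3 are direct neighbours on chromosome 17 in the GENCODE annotation, yet STAT3 rose where STAT5B fell. Of the genes that flank them, GHDC, the gene next to STAT5B, had log2 fold changes of -0.11 ± 0.154 for IFNγ, which did not pass, and 0.48 ± 0.142 for radiation, which did. PTRF, a caveolar coat gene next to STAT3, fell under each treatment, by 0.26, 0.27 and 0.39 on the log2 scale for IFNγ, radiation and the combination. On chromosome 12, IL23A, an interleukin subunit next to STAT2, had 3 counts in the untreated libraries together, 25 with IFNγ, 18 irradiated and 48 in the combination. For the combination that is a ratio of 15.7, with an exact counting interval of 5.07 to 79.0. APOF, on the other side of STAT2, had at most 1 count in any library. STAT6 overlaps LRP1 and NAB2, which lie on the opposite strand and share 59 and 69 of its 7298 exon bases. LRP1, an endocytic receptor, rose by 1.82 ± 0.0417 with radiation, where STAT6 did not pass the test. The transcriptional corepressor NAB2 differed from untreated by 0.01 ± 0.0781 with IFNγ, where STAT6 rose. Whether counting used the strand is not given in the sources used here, so reads in the shared bases cannot be told apart. Of the other neighbours of STAT6, NEMP1 rose under each treatment (0.22, 0.22 and 0.27), and NXPH4 fell in the combination alone among the comparisons with untreated cells (-0.51 ± 0.125).

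Per kilobase of exon, the order of the members changed with treatment. The lengths used are unions of all annotated exons, and the lengths of the transcripts expressed in these cells were not measured. Orders, shares and ratios between genes depend on those lengths. In untreated cells STAT6 led with 20.2 ± 0.205 CPM per kb, before STAT3 (10.1 ± 0.627), STAT5B (7.21 ± 0.155), STAT2 (4.52 ± 0.221) and STAT5A (0.315 ± 0.0885; SD, n = 3). With IFNγ, STAT2 came first at 25.3 ± 1.20 CPM per kb. STAT6 followed at 22.7 ± 0.442 and STAT3 at 21.9 ± 1.26, and single libraries of those 2 overlapped. In irradiated cells STAT6 (20.8 ± 1.30) and STAT3 (19.6 ± 0.373) overlapped at the top, with STAT2 at 7.83 ± 0.370 CPM per kb. In the combination the order was STAT2 (36.9 ± 3.60), STAT3 (30.3 ± 1.37), STAT6 (24.9 ± 0.809), STAT5B (5.51 ± 0.106) and STAT5A (0.412).

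The summed level of the 5 genes was 42.3 ± 0.358 CPM per kb untreated, 76.8 ± 2.78 with IFNγ, 54.1 ± 1.43 irradiated and 97.9 ± 5.62 in the combination. STAT2 made up 10.7 ± 0.608% of that sum in untreated cells, 32.9 ± 0.585% with IFNγ, 14.5 ± 0.619% irradiated and 37.6 ± 1.48% in the combination. STAT3 held 23.9 ± 1.28% untreated and its highest share, 36.2 ± 1.08%, in irradiated cells. STAT6 went from 47.6 ± 0.458% untreated to 25.4 ± 0.725% in the combination, while its own level rose. The ratio of STAT2 to STAT3 per kb was 0.448 ± 0.0502 untreated and 0.401 ± 0.0253 irradiated. It was 1.16 ± 0.0465 with IFNγ and 1.22 ± 0.0635 in the combination. Per kb it was thus above 1 in the groups given IFNγ and below 1 in the others. That crossing rests on the exon lengths. In CPM, mean STAT2 was below mean STAT3 in every group, at 154 and 193 with IFNγ and 225 and 267 in the combination.

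**Figure D2:**
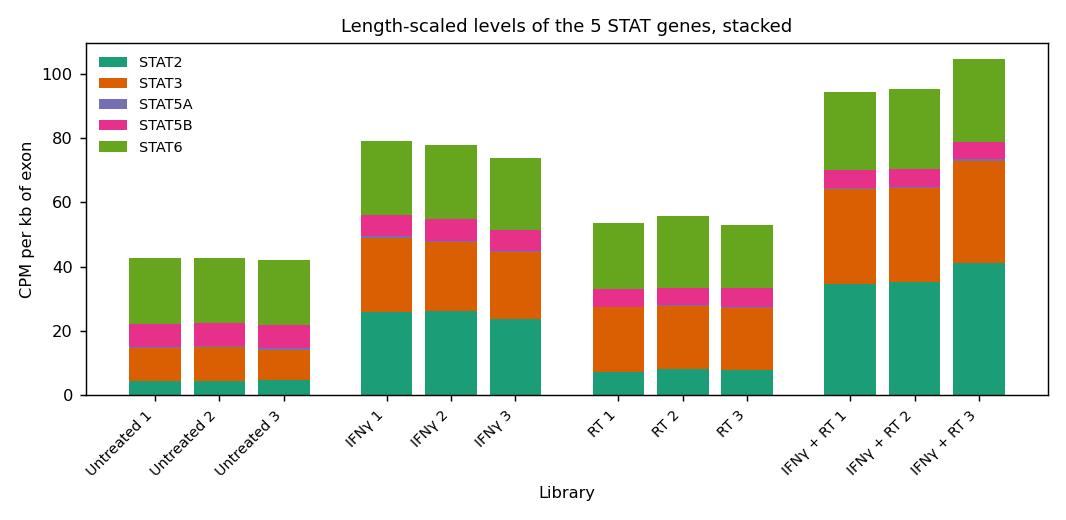
Stacked levels of the 5 genes in CPM per kb of exon, a bar per library. The bars sum to 41.9 to 42.6 in untreated libraries and to 94.2 to 104 in combination libraries, and the STAT2 and STAT3 segments take up most of the increase.

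Adding radiation to IFNγ raised STAT2 and STAT3 further. Against IFNγ alone, the combination was higher by 0.55 ± 0.0494 for STAT2 (edgeR adjusted p = 4.86e-11), by 0.47 ± 0.0395 for STAT3 (adjusted p = 5.88e-15) and by 0.13 ± 0.0392 for STAT6 (adjusted p = 0.00303). STAT5B differed by -0.27 ± 0.0613 (edgeR adjusted p = 0.000126), and STAT5A by 0.38 ± 0.274, which did not pass (adjusted p = 0.229). In that comparison 60.7% of all genes were called. Against radiation alone, where 26.9% of all genes were called, the combination was higher by 2.24 ± 0.062 for STAT2, 0.63 ± 0.0402 for STAT3 and 0.26 ± 0.0397 for STAT6 (edgeR adjusted p = 2.84e-24, 3.93e-19 and 5.11e-07). STAT5B differed by -0.04 ± 0.0634, with an interval of -0.17 to 0.09. For STAT5A the difference was 0.69 ± 0.293 (edgeR adjusted p = 0.065). Without irradiated replicate 2, which had the most STAT5A counts of its group, it was 0.99 (adjusted p = 0.0242).

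**Figure D3:**
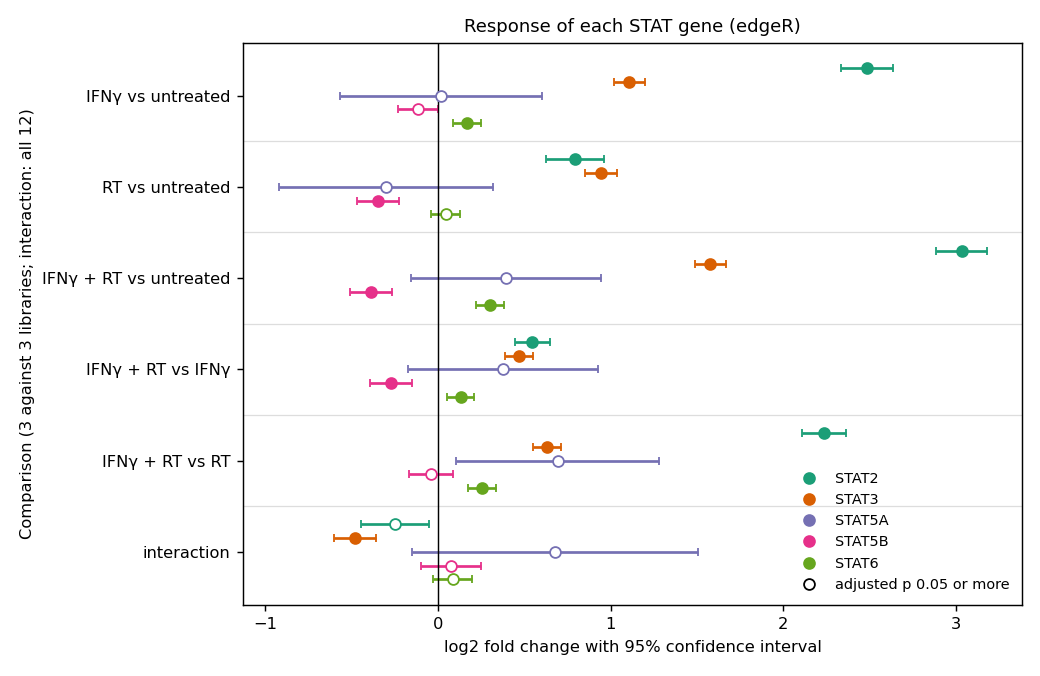
Log2 fold change of each member with its 95% confidence interval in 6 comparisons; filled points passed an adjusted p under 0.05 in edgeR. STAT2 and STAT3 are filled and to the right of 0 in the first 5 comparisons, and in the interaction the filled point is STAT3, at -0.48.

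The IFNγ response of STAT3 was smaller in irradiated cells. IFNγ raised STAT3 by 1.11 in unirradiated cells and by 0.63 in irradiated cells, a difference in log2 fold change of -0.48 ± 0.0606, with an interval of -0.60 to -0.36 (edgeR interaction adjusted p = 3.25e-07). STAT3 was the member called in this interaction, for which 2.38% of all genes were called, and it ranked 9 of 12160 genes by p. For STAT2 the difference was -0.25 ± 0.0962, with an interval of -0.45 to -0.05, and did not pass (edgeR adjusted p = 0.194). It passed without combination replicate 3, the library with the most STAT2 (-0.33, adjusted p = 0.00903). STAT5A (0.68 ± 0.413), STAT5B (0.08 ± 0.0862) and STAT6 (0.09 ± 0.0565) did not pass.

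On the linear scale the same values read differently. The gains in mean STAT3 over untreated cells were 104 CPM with IFNγ and 83.1 CPM with radiation, and adding both to the untreated level gives 276 ± 7.41 CPM (SE). The combination measured 267 ± 6.97 CPM, a difference of -9.01 ± 10.2 CPM, which is within its error. Multiplying the single fold changes gives 372 CPM, above each of the 3 combination libraries. For STAT2 the gains were 127 and 20.3 CPM and their sum gives 175 ± 4.50 CPM. The measured 225 ± 12.7 CPM lay 50.7 ± 13.5 CPM above that sum and differed by -42.4 CPM from the product of 268 CPM. Leaving out each library in turn, the STAT2 excess over the sum was 38.0 to 58.0 CPM, the lowest without combination replicate 3, and the STAT3 difference was -16.0 to -3.05 CPM. For STAT6 the sum (170.3 CPM) and the product (171 CPM) were alike, and the measured level of 181 ± 3.41 CPM was 11.2 ± 6.75 above the sum.

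**Figure D4:**
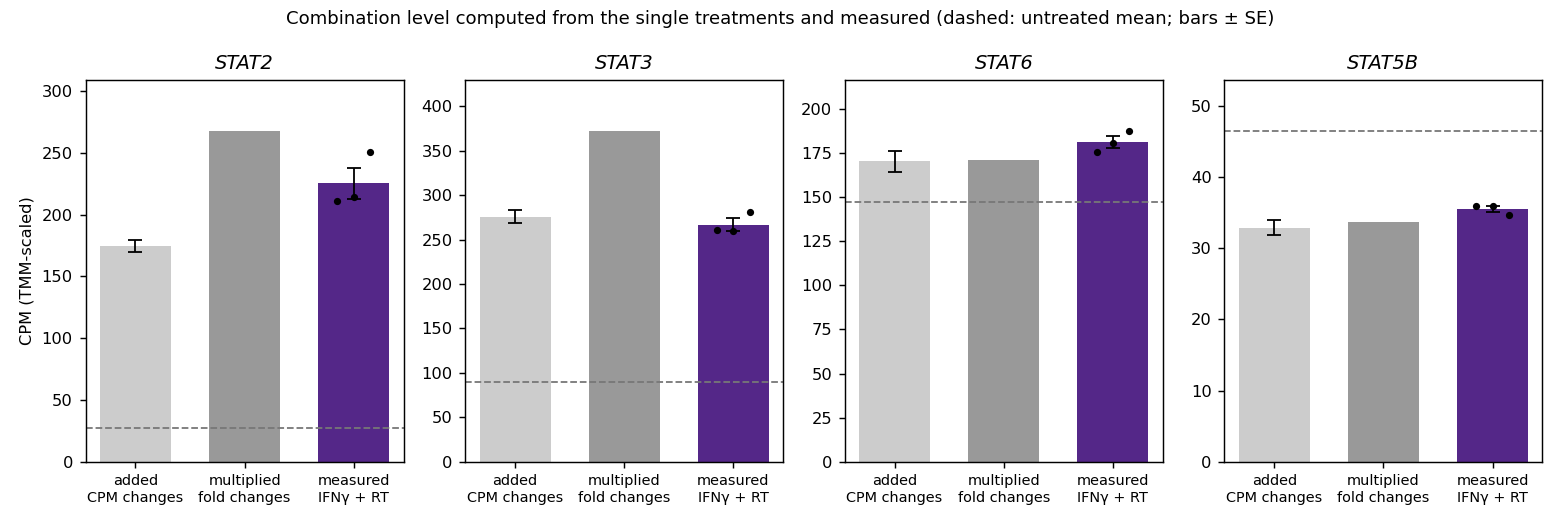
Level in the combination, in CPM, computed by adding the single CPM changes or by multiplying the single fold changes, beside the measured mean (bars ± SE; points are libraries; dashed line, untreated mean). Measured STAT3 (267) is near the added value (276), and measured STAT2 (225) lies between the added (175) and multiplied (268) values.

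IRF9, the DNA-binding partner of STAT2, rose with each treatment. It read 7.69, 7.15 and 8.32 CPM untreated, 65.2, 59.8 and 63.0 CPM with IFNγ, 12.3, 12.5 and 12.1 CPM irradiated, and 49.8, 53.2 and 58.1 CPM in the combination. The log2 fold change was 3.02 ± 0.101 for IFNγ, 0.67 ± 0.12 for radiation and 2.80 ± 0.102 for the combination. Here the combination lay below IFNγ alone, by 0.22 (log2 fold change -0.22 ± 0.0568, edgeR adjusted p = 0.000717), where STAT2 lay above it. The IRF9 interaction was -0.89 ± 0.133 (edgeR adjusted p = 7.38e-06).

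Upstream, the type I receptor chain IFNAR2 and the kinase JAK2 rose with IFNγ, by 1.06 ± 0.0816 and 0.63 ± 0.121 on the log2 scale. They were the 2 called of the 7 interferon receptor and kinase genes, both higher. Over all genes 15% were called higher with IFNγ and 29.1% in either direction. The other 5 did not pass: IFNAR1 at 0.10, IFNGR1 at -0.15, IFNGR2 at -0.07, JAK1 at 0.07 and TYK2 at -0.10. Radiation raised IFNAR1 (0.26 ± 0.0488) and JAK1 (0.27 ± 0.0369). Those 2 of 7 were near the 27.9% of all genes called higher with radiation. None of the 7 was lower, where 28.2% of all genes were called lower. The combination raised 5 of 7, beside 30.9% of all genes, with IFNGR1 (0.24 ± 0.0717) joining these, and IFNGR2 (-0.06) and TYK2 (0.06) did not pass. The list's median log2 fold change was 0.07 for IFNγ, 0.13 for radiation and 0.19 in the combination, beside medians of -0.005, 0.006 and -0.001 over all genes tested.

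Of 18 receptors for other ligands that signal through STATs, 13 were tested. IFNγ raised 4 and lowered 4 (background 15% higher and 14.1% lower), radiation raised 6 and lowered 3 (27.9% and 28.2%), and the combination raised 7 and lowered 2 (30.9% and 31.2%). By DESeq2 radiation lowered 1. IL10RB, a shared chain of the interleukin 10 family receptors, rose by 0.48 ± 0.0797, 0.52 ± 0.0797 and 1.00 ± 0.0751 in those comparisons. IL4R, the receptor chain upstream of STAT6, rose by 0.41 ± 0.0668, 0.39 ± 0.0672 and 0.44 ± 0.0663. The interleukin 6 receptor IL6R fell by 0.49, 0.44 and 1.07, whereas its signalling partner IL6ST (gp130) rose by 0.29, 0.28 and 0.35. IL4R and IL6ST were also called in the interaction, at -0.36 ± 0.092 (edgeR adjusted p = 0.0218) and -0.22 ± 0.0516 (adjusted p = 0.0102). Of these 2 calls 1 was lost with DESeq2 and without IFNγ replicate 1 or 2, irradiated replicate 2 or 3, or combination replicate 1 or 2. Without untreated replicate 2, IFNγ lowered 2 receptors. The platelet-derived growth factor receptor PDGFRB fell with IFNγ (-0.65 ± 0.179), and IL11RA rose with radiation (0.82 ± 0.195).

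Among 17 cytokine genes, 9 were tested, and IFNγ raised 5 and lowered none, beside 15% of all genes higher and 14.1% lower. Interleukin 6, a main ligand upstream of STAT3, rose in each treated group, from 1.12 ± 0.0923 CPM untreated to 2.63 ± 0.276 with IFNγ, 3.27 ± 0.873 irradiated and 5.86 ± 0.592 in the combination (SD, n = 3). Interleukin 15, which signals through STAT5, rose with IFNγ from 3.31 ± 0.758 to 14.7 ± 0.341 CPM and read 2.66 ± 0.58 CPM irradiated. Radiation raised 3 ligands and lowered 2, CNTF (-0.90 ± 0.244) and CLCF1 (-0.45 ± 0.121), counts near the 27.9% and 28.2% of all genes. The combination raised 6 and lowered 2, or 1 without untreated replicate 2, beside 30.9% and 31.2% of all genes. Medians were 0.83, 0.14 and 0.92 for IFNγ, radiation and the combination.

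The inhibitors did not move as a block. Of 15 tested among 18 listed, IFNγ raised 5 and lowered 5, radiation raised 1 and lowered 4, and the combination raised 4 and lowered 5, with medians of -0.08, -0.07 and -0.04. Beside all genes (15% higher and 14.1% lower with IFNγ, 27.9% and 28.2% with radiation, 30.9% and 31.2% in the combination), both combination counts and the count lowered by radiation were near the background. USP18, which restrains the type I receptor, rose by 2.65 ± 0.215 with IFNγ, and SOCS1, the classic IFNγ feedback gene, rose by 2.18 ± 0.446. SOCS3, which restrains gp130 signalling to STAT3, went from 17.9 ± 1.17 CPM to 39.3 ± 4.23 with IFNγ. It read 19.9 ± 0.751 CPM irradiated and 31.7 ± 3.13 in the combination, with an interaction of -0.46 ± 0.119 (edgeR adjusted p = 0.024). That interaction call was lost with DESeq2 and without untreated replicate 2 or 3, IFNγ replicate 1, irradiated replicate 1 or 3, or combination replicate 1 or 2. With radiation USP18 (0.14 ± 0.274), SOCS1 (0.29 ± 0.544) and SOCS3 (0.15 ± 0.0945) did not pass. SOCS2 and SOCS5 fell with IFNγ, by 1.19 and 0.46. The phosphatase PTPN2 rose with IFNγ (0.30 ± 0.0593) and fell with radiation (-0.43 ± 0.0657). Radiation raised 2 of these genes without untreated replicate 1 or irradiated replicate 1, and lowered 2 without irradiated replicate 2 or combination replicate 2 and by DESeq2.

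Genes listed as targets of STAT2 complexes rose with IFNγ in 22 of 24 cases and fell in none, beside 15% of all genes higher. The list was chosen with earlier results of these data known, so its counts and medians are a description and not a test. The median log2 fold change was 3.40, beside -0.005 over all genes. XAF1 went from 3 counts in the untreated libraries to 1407 with IFNγ, a ratio of 474 with a counting interval of 162 to 2303. RSAD2 had 0 counts untreated and 60 with IFNγ, at least 20.2-fold higher when the untreated group is set to the 3 counts that a 0 allows. Radiation raised 7 and lowered 3 of the 24, beside 27.9% of all genes higher and 28.2% lower, so the higher count was near the background and the lower count under it. IFIT1 rose by 1.50 ± 0.337 and IFI27 by 1.21 ± 0.326 with radiation, while CMPK2 (-0.52 ± 0.222) and SAMD9 (-0.36 ± 0.0699) fell. The radiation median was 0.44, and 0.42 without RSAD2. The higher count was 4 without untreated replicate 1 or 2 or irradiated replicate 1 or 3, and 11 without combination replicate 3. The lower count was 1 without untreated replicate 2 or irradiated replicate 1.

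In the combination 23 of the 24 genes of that list rose, with a median of 3.78, beside 30.9% of all genes higher and a median of -0.001 over all genes. Against IFNγ alone, 14 were higher and 1 lower, beside 30.3% of all genes higher and 30.4% lower. The higher count was 8 when the fit held only the groups compared. The lower count was 3 without combination replicate 3. IFIT1 read 3.26 ± 0.718 CPM untreated, 16.5 ± 3.13 with IFNγ, 9.27 ± 0.693 irradiated and 40.1 ± 8.14 in the combination. SAMD9 was called in the interaction, at 0.33 ± 0.0891 (edgeR adjusted p = 0.039). That call was lost with DESeq2 and without untreated replicate 2 or 3, IFNγ replicate 3, any 1 of the irradiated libraries, or combination replicate 2 or 3.

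Genes known as STAT3 targets were more divided. Of 18 tested among 21 listed, IFNγ raised 11 and lowered 2, radiation raised 8 and lowered 4, and the combination raised 13 and lowered 3, with medians of 0.19, 0.21 and 0.56. Over all genes, 15% were higher and 14.1% lower with IFNγ, 27.9% and 28.2% with radiation, and 30.9% and 31.2% in the combination, so the count lowered by radiation was near the background. The adhesion gene ICAM1 rose with IFNγ from 0.516 ± 0.205 to 57.7 ± 10.5 CPM, and read 1.03 ± 0.32 CPM irradiated, which did not pass. CEBPD rose by 1.03 ± 0.143 with IFNγ. Radiation raised the survival gene BCL2L1 (0.76 ± 0.0401) and FOS (1.01 ± 0.373), and lowered MYC (-1.07 ± 0.0692) and the kinase PIM1 (-0.72 ± 0.0894). MYC also fell with IFNγ (-0.16 ± 0.0596) and in the combination (-1.22 ± 0.0702). Cyclin D1 (CCND1) was called in the interaction, at -0.22 ± 0.0398 (edgeR adjusted p = 0.000349). The count lowered by IFNγ was 1 without untreated replicate 1, 2 or 3 or IFNγ replicate 3, and 4 with library totals.

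Of 10 listed STAT5 targets 7 were tested. IFNγ raised 2, BCL6 (0.85 ± 0.0772) and ID1 (0.30 ± 0.0477), and lowered the survival gene BCL2 (-0.51 ± 0.102); without IFNγ replicate 2 it lowered 2. Over all genes 15% were higher and 14.1% lower. Radiation raised the kinase PIM2 (1.04 ± 0.305) and BCL6 (0.31 ± 0.0826) and lowered 4, BCL2 among them (-0.85 ± 0.109), beside 27.9% of all genes higher and 28.2% lower. The combination raised 2 and lowered 2, near the background of 30.9% and 31.2%, with BCL2 at -1.34 ± 0.119. Of 10 STAT6 targets 2 were tested. TGM2, a transglutaminase, rose by 0.43 ± 0.0668, 0.33 ± 0.067 and 0.66 ± 0.0663 with IFNγ, radiation and both, and GATA3 did not pass in any of these (-0.49 ± 0.227, 0.25 ± 0.202 and 0.17 ± 0.202).

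Across the 95 tested genes of all these lists, 5 were called lower and 1 higher in the interaction. Background was 0.995% of all genes lower and 1.38% higher.

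**Figure D5:**
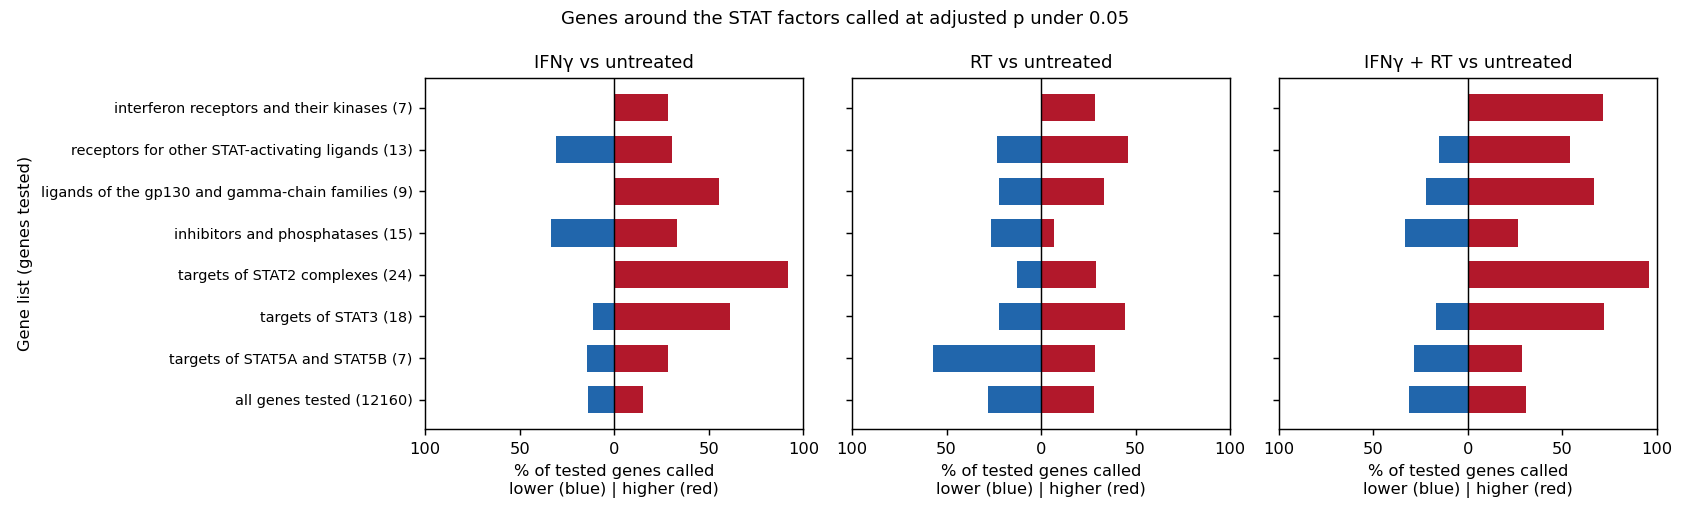
Share of tested genes called higher (red, to the right) or lower (blue, to the left) in 7 gene lists and over all genes tested, in percent, for the 3 comparisons with untreated cells. Listed STAT2 targets called higher number 22 of 24 with IFNγ and 7 of 24 with radiation, where 27.9% of all genes were higher. The lists were chosen with earlier results of these data known.

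The genes whose levels followed each member most closely over the 12 libraries were ranked by Pearson r of log2 CPM, as a description, since the libraries share 4 treatments. For STAT2 they were SP140L, LGALS3BP and TAPBP (r = 0.997 each), and LGALS3BP, a secreted galectin-binding protein, averaged 159, 406, 218 and 497 CPM in untreated, IFNγ, irradiated and combination cells. For STAT3 they were MVP (0.994), RNF19B (0.994) and TRANK1 (0.990). The major vault protein gene MVP averaged 106, 168, 158 and 217 CPM in the same order. For STAT5B they were HNRNPA0 (0.984), KCMF1 (0.983) and DDX5 (0.981), and HNRNPA0, an RNA-binding protein, averaged 188, 166, 113 and 107 CPM. For STAT6 they were RAB43 (0.976), SPG11 (0.952) and MKNK2 (0.950). Of 8076 genes compared, 727 had an r over 0.9 with STAT5B, 263 with STAT2, 147 with STAT3 and 68 with STAT6. For the sparse STAT5A the highest values were 0.829 (CCDC127), 0.797 (EXOSC1) and 0.789 (ERI2).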

How the data were processed

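The submitters' processing notes name Cuffdiff 2.2.1, Cufflinks, TopHat2 2.0.13 and FastQC 0.11.3, with the build hg19/GRCh37. The authors deposited whole-number counts per gene. The counting tool, the annotation behind it and whether strand was used: not given in the sources used here. Per the labels' protocols, ribosomal RNA was removed and stranded total RNA libraries were read as pairs of 50 cycles, whereas the series' design text speaks of an mRNA protocol. The first 4 column names are shifted in the header and were read by content. The 12 libraries held 9675126 to 11010656 counts, a median of 320 per tested gene.

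Counts were tested with edgeR 4.0.16 (filterByExpr, TMM, robust quasi-likelihood fit over the 4 groups of 3, Benjamini-Hochberg over 12160 genes, threshold 0.05). Genes left out held 0.0678% of counts, and the common biological coefficient of variation was 2.71%. CPM use TMM-scaled totals. SE are Wald errors of the fit, and intervals are at 95%. Exon lengths are unions of GENCODE exons (GRCh38), matched by versioned identifier. Promoter windows are from RefSeq. The fit was tested on 1 simulated set of 11987 genes for radiation against untreated. It recovered 58 of 100 genes changed 1.25-fold and 90 of 100 changed 2-fold, with 8 false calls. A change of the smaller size can therefore be missed. The alternatives were DESeq2 1.42.0, other scalings and filters, a replicate block and leaving out each library. Named are the members, their 3 most alike genes (mean log2 CPM 4 or more, prior count 2), their neighbours, the interferon receptors, JAK1, JAK2, TYK2, IRF9, SOCS1, SOCS3 and USP18, and in each list the 2 largest called changes per direction. Members and lists were chosen with earlier results of these data known. Protein sequences are not used here.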

Additional observations from a re-analysis of the deposited data

Results flagged for a closer look

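The effect of IFNγ on STAT3 differed between irradiated and unirradiated cells by a test of the difference itself. The difference in log2 fold change was -0.48 ± 0.0606 (SE, 12 libraries; edgeR interaction adjusted p = 3.25e-07), with all 3 combination libraries above all irradiated ones and all 3 IFNγ libraries above all untreated ones. Libraries that did not overlap were found for 40.3% of all genes in the combination against radiation and for 39.5% in IFNγ against untreated. Leaving out each library in turn, the difference in log2 fold change was -0.52 to -0.42. On the linear scale the combination differed from the sum of the single changes by -9.01 ± 10.2 CPM.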

How the results depend on the processing

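Of 660 recomputed member log2 fold changes, 647 kept their direction and side of the threshold, and the others concern weak results. Leaving out a library of a group outside a comparison could hardly move its fold change, so this tally overstates how stable the results are. STAT5A with IFNγ changed sign with library totals (-0.041) and without untreated replicate 2 (-0.17), IFNγ replicate 1 (-0.10) or IFNγ replicate 3 (-0.10), with a range of -0.17 to 0.23 when each library was left out. STAT6 with radiation was -0.0073 to 0.079, negative without irradiated replicate 2. STAT5B with IFNγ passed with library totals (-0.17). STAT5A in the combination against radiation passed with the groups compared alone (0.70, adjusted p = 0.0496), and ranged from 0.45 to 0.99. The STAT2 interaction passed without the count filter (-0.26, adjusted p = 0.0477), and ranged from -0.33 to -0.20. The number of members called in the interaction was then 2, and 1 to 2 when each library was left out. For IFNγ against radiation, library totals gave 0.084 for STAT3 and 0.047 for STAT6 (adjusted p = 0.316), neither called, and 2 members called. STAT6 there was 0.090 to 0.18, and lost its call without irradiated replicate 3 (adjusted p = 0.0796). The number of genes called in the interaction, 289, was 136 by DESeq2, 161 without irradiated replicate 2 and 179 without combination replicate 2. With library totals, levels moved by more than 1 SD for STAT3 irradiated (176 CPM) and for STAT5B and STAT6 with IFNγ (41.6 and 160.6 CPM). The cause was not tested. Of 2376 list counts, 121 moved by over 1.5 times. STAT5A is limited by depth, at 9 to 27 counts per library.

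With the replicate number as a block, the STAT3 interaction was -0.48 (adjusted p = 3.92e-07) and genes called in it were 276, and no member call changed. No pairing by number was visible: of 18 same-numbered pairs, 0 had a correlation of deviations over 0.1 (-0.0711 to 0.0537), and 0 libraries correlated best with their own number. This does not show whether same-numbered libraries were handled together. Replicate pairs differed by more than sampling noise, with a chi-square per degree of freedom of 1.13 to 2.67.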
